A study of Mus musculus with 3 samples.

Results

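TGF-beta signalling was examined in mouse GBM through 10 genes of 50262 in the count table, taken by name: the ligands Tgfb1, Tgfb2 and Tgfb3, the receptors Tgfbr1 and Tgfbr2, the genes Nrros, Itgb8 and Ltbp1 that hold or release the latent ligand, and the responsive genes Tgfbi and Smad7. Single cells were captured with inDrop, a droplet method that counts each mRNA molecule by a unique molecular identifier (UMI). All animals were adult mice on a mixed background that carried, among other alleles, a conditional human EGFR WT transgene, constitutive loss of Cdkn2a (Cdkn2a-/-) and a conditional luciferase reporter, and tumors were started by a Cre lentivirus injected into the brain. Every animal carried a tumor and no untreated brain was analysed here. FACS separated leukocytes (CD45+) from all other viable cells (CD45-) at 3 stages (early, medium and large) with 1 tumor sample per stage, the early one pooled from more than 1 animal. Each of the 24 libraries (4 per stage and sort) is a technical repeat, so the 3 tumor samples served as replicates for comparisons between cells, and no test was made between stages.

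TGF-beta is secreted in a latent form, bound to its own propeptide and tethered to a carrier protein. Nrros (also called LRRC33) tethers latent TGF-beta to the surface of microglia and other myeloid cells, and LTBP1 tethers it to the extracellular matrix. The integrin made of alpha v and the beta 8 chain, encoded by Itgb8, releases the active ligand, which then binds TGFBR2 and recruits TGFBR1 to phosphorylate SMAD2 and SMAD3. Microglia need this signal to keep their resting identity. TGFBI is a secreted matrix protein induced by TGF-beta, and SMAD7 is an induced inhibitor that acts on TGFBR1.

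The level of a gene is given as CPM, its UMIs per 1000000 UMIs of the same cells, which is not corrected for gene length, so levels are compared between cells and not between genes. Log2 fold changes with an SE come from fits that rescale each sum by a normalization factor (TMM). They can therefore differ from the ratio of the CPM printed beside them. After filtering, 17781 cells remained, with medians from 1964 to 3078.5 UMIs per cell across sorts and stages. Clustering placed them in 32 clusters, which were named from marker genes, and 4 clusters with 1834 cells stayed unnamed. Microglia-like cells numbered 5936 and macrophage or monocyte-like cells 1369, both in the CD45+ sort. Glioma or oligodendrocyte progenitor-like cells numbered 1748 and stroma 689 (344 endothelial-like, 125 mural-like and 220 fibroblast-like), both in the CD45- sort. The summed level of the 10 microglial markers was 13513 to 19007 CPM in microglia-like cells, 2339 to 4979 in macrophage-like cells, 71.1 to 228 in glioma-like cells and 227 to 332 in stroma. Libraries of 1 sort and stage shared up to 162 cell barcodes (25.7% of the smaller library), against at most 26 between other libraries, so some cells may stand in more than 1 library. Their removal is among the alternatives.

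The glioma or progenitor-like class did not hold the same cells at every stage. Of its 173 early cells, only 4 had a UMI of the human EGFR transgene, and the transgene stood at 119 CPM at the early stage, 1743 at the medium and 1880 at the large stage. A cluster led by Pdgfra and C1ql1, genes of oligodendrocyte progenitors, made up 75.1% of the early class and 5.01% of the large one. The early values of this class are therefore those of progenitor-like cells with little sign of the transgene. In the macrophage-like class, a cluster led by Spp1 and Arg1 made up 88.9% of the large cells and one led by Ccr2 made up 64.1% of the early and 73.5% of the medium cells. The Spp1-led cluster raised 3 of 10 macrophage or monocyte markers (Lyz2, Ms4a6c and Arg1). Its leading genes also included Igf1, Clec7a, Lpl, Apoe, Acp5 and Itgax. Whether microglia in another state are among its cells was not tested, and comparisons of the 2 myeloid classes rest on this split. The Ccr2-led cluster raised 9 of 10 and also 5 of 10 dendritic cell markers, and no cluster was named dendritic. Dendritic cell markers summed to 605 to 2312 CPM in this class and 794 to 1125 in microglia-like cells. Classing each cell by its own markers put 169, 671 and 351 early, medium and large cells here, against 195, 510 and 664. With that classing, 2 members were called higher and 1 lower in microglia-like over macrophage-like cells (783 and 656 of 13826 genes). In macrophage-like over glioma-like cells it was 6 and 2 (2769 and 3269 genes), and in stroma over macrophage-like cells 3 and 4 (2849 and 1884 genes). The part of the dendritic cell markers in macrophage-like levels was not tested.

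On the GRCm38 build, the GENCODE annotation places the genes Tgfb1 at chr7:25687002-25705077, Tgfb2 at chr1:186622792-186705989 and Tgfb3 at chr12:86056745-86079041. Tgfbr1 lies at chr4:47353222-47414931 and Tgfbr2 at chr9:116084293-116175360. The latency and activation genes are Nrros at chr16:32142785-32165594, Itgb8 at chr12:119158022-119238802 and Ltbp1 at chr17:75005568-75392512, and Tgfbi lies at chr13:56609523-56639562. All are protein coding. Tgfb1, Nrros, Tgfbr1 and Tgfbr2 were called higher in both leukocyte classes than in glioma-like cells, so the 250 bases before their starts are shown, 5′ to 3′, from RefSeq on GRCm38.p6. Smad7 met the same criterion and no sequence of it is shown. Capitals mark GAGGAA or its reverse complement TTCCTC, the core of the sequence bound by the myeloid factor PU.1.
Tgfb1, chr7:25686752-25687001, plus strand: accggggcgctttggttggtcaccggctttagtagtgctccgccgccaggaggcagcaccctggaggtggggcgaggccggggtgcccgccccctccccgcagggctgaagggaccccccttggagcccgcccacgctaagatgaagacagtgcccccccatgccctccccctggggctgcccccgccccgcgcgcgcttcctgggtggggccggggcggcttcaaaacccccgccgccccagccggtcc
Nrros, chr16:32165595-32165844, minus strand: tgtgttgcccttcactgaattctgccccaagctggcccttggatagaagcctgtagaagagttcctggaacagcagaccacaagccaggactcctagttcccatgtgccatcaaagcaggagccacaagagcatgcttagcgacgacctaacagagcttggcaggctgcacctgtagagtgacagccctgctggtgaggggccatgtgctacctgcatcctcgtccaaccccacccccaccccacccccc
Tgfbr2, chr9:116175364-116175613, minus strand: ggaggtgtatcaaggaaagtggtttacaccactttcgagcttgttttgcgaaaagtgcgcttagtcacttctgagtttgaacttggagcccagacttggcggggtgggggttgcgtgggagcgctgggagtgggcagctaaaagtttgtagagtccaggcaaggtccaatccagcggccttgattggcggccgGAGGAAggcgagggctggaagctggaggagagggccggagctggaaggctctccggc
Tgfbr1 at the start of the gene, chr4:47352972-47353221, plus strand: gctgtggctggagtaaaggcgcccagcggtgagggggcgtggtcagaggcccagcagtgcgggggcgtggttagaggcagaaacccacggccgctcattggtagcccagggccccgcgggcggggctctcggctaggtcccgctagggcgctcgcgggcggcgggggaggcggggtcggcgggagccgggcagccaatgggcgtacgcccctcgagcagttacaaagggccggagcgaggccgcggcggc
Tgfbr1 at a start inside the gene, chr4:47385966-47386215, plus strand: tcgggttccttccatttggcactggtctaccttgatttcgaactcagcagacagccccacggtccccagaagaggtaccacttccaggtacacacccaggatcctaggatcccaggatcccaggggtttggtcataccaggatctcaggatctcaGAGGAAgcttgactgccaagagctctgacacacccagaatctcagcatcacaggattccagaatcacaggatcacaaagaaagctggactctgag
The motif was present before Tgfbr2 and before the second start of Tgfbr1, and in 4 of 10 windows before the starts of members. These windows cover 8 members, with 2 each for Tgfbr1 and Ltbp1 and none for Smad7 and Tgfb3. It was present in 23.3% of 32851 windows of the same length. The longer GAGGAAGT was present in none of the 10 windows and in 2.44% of all. Other searches on both strands, some overlapping these, were for GGAAGT (1 member window, 19.7% of all), GTCTAGAC (0, 0.167%), CAGACA (4, 17.1%), GTCTG (8, 42.2%) and TGACTCA (0, 4.46%). A match is a description of these letters only.

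The first comparison asked whether ligands and receptors lay on the same side of the sort. CD45+ cells had more Tgfb1, Tgfbr1, Tgfbr2, Nrros and Tgfbi, and CD45- cells had more Tgfb2 and Itgb8. Of the 10 members, 5 were called higher and 2 lower in CD45+ cells, where 20.4% of 18433 genes tested were called higher and 25.7% lower. Because a sort is a mixture, a difference may reflect more cells of a type or more RNA of the gene per cell, which sums cannot tell apart.

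Tgfb1 stood at 120, 74.1 and 135 CPM in the early, medium and large CD45+ cells and at 15.4, 11.9 and 14.3 in the CD45- cells. The sorts did not overlap, and the log2 fold change was 3.32 (SE 0.22, adjusted p = 0.000117, edgeR quasi-likelihood test, higher in 3 of 3 tumor samples). Tgfb2, the ligand of astrocytes and epithelia among others, had the opposite order, with 3.70, 7.50 and 11.5 CPM in CD45+ and 58.5, 52.1 and 54.0 in CD45- cells (log2 fold change -2.61, SE 0.37, adjusted p = 0.0014). Tgfb3 was sparse in both sorts, at 3.20 ± 3.47 and 7.005 ± 2.12 CPM (SD, n = 3), and was not called (adjusted p = 0.2). Both receptors were higher in CD45+ cells in each tumor sample. Tgfbr1 fell between 206 and 656 CPM in CD45+ cells and between 26.4 and 75.4 in CD45- cells, with the highest value of both sorts in the early sample (log2 fold change 3.57, SE 0.32). Tgfbr2 was 199 ± 34.9 in CD45+ and 57.7 ± 11.1 in CD45- cells (log2 fold change 2.16, SE 0.23).

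Nrros, the myeloid tether, was 132 ± 23.1 CPM in CD45+ and 17.7 ± 5.86 in CD45- cells (log2 fold change 3.30, SE 0.26). Itgb8, the activating integrin chain, lay on the other side of the sort, at 4.35, 17.7 and 7.80 CPM in CD45+ cells and 138, 128 and 112 in CD45- cells (log2 fold change -3.49, SE 0.44, adjusted p = 0.000949, from -2.86 without the early to -4.10 without the medium sample). Ltbp1 stood at 3.76 ± 0.66 and 6.99 ± 3.55 and was not called (adjusted p = 0.429). Tgfbi was 96.3 ± 43.3 in CD45+ and 19.4 ± 7.93 in CD45- cells (log2 fold change 2.62, SE 0.25). Smad7 was 75.6 ± 22.8 and 68.5 ± 25.3, a log2 fold change of 0.53 with SE 0.26 that did not pass (adjusted p = 0.131). Each of the 7 calls kept its direction within each of the 3 sequencing runs.

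**Figure D1:**
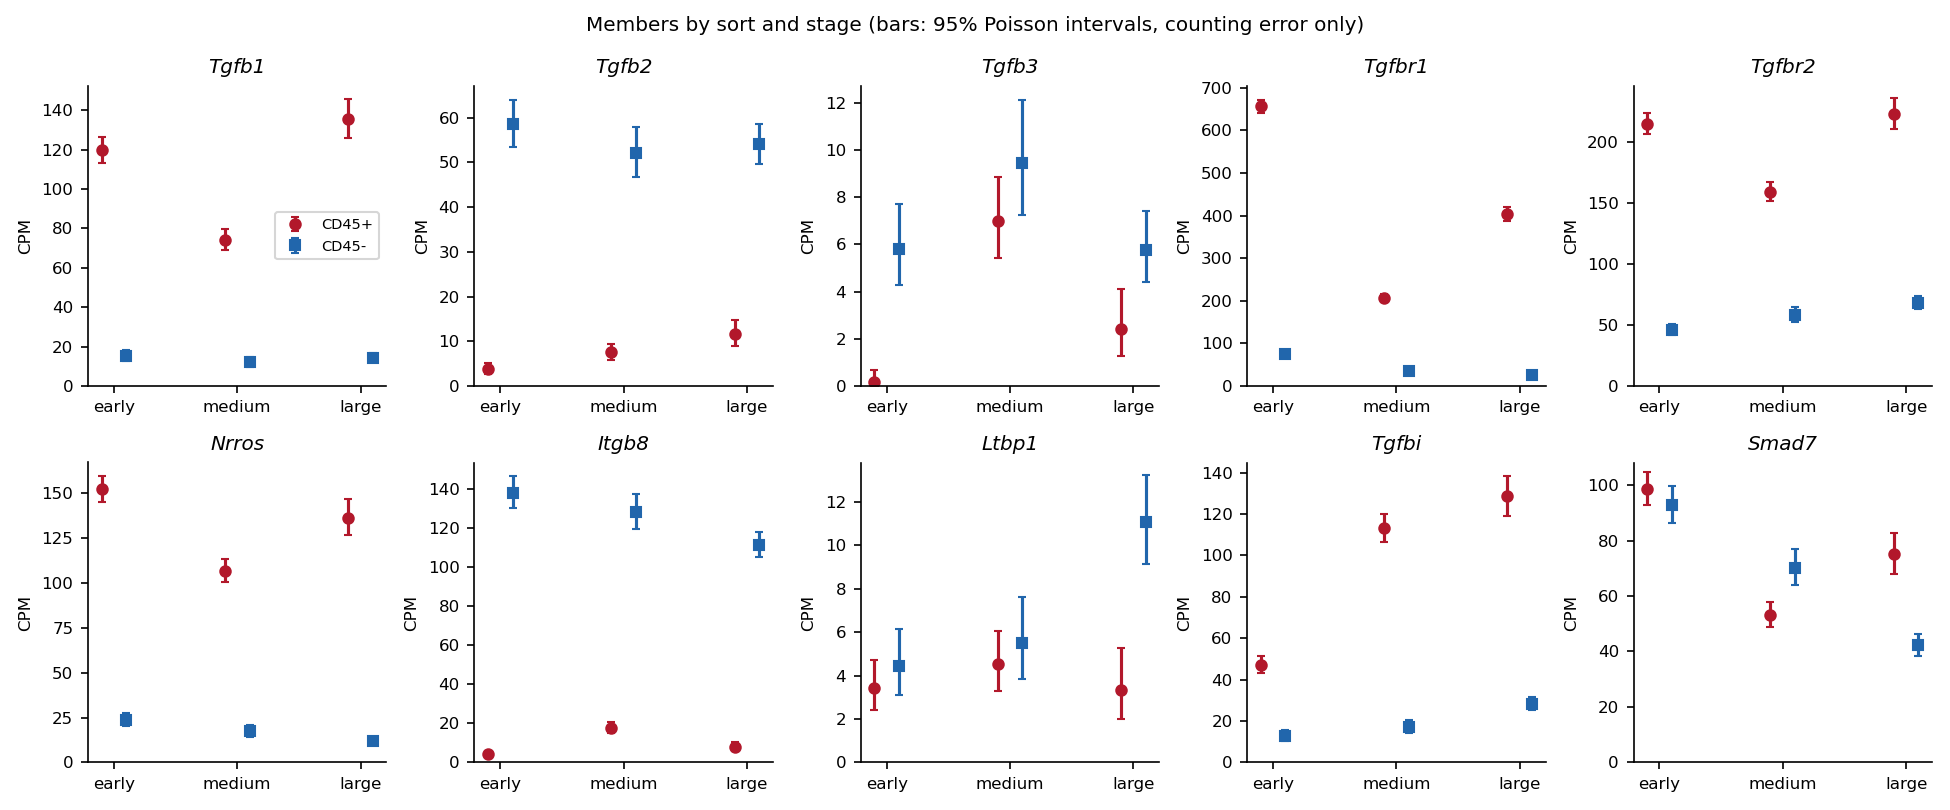
CPM of each member (y axis) at each stage (x axis) in CD45+ cells (red circles) and CD45- cells (blue squares), with 95% Poisson intervals that cover counting error only. Tgfb1, Tgfbr1, Tgfbr2, Nrros and Tgfbi are higher in CD45+ cells in all 3 samples, Tgfb2 and Itgb8 in CD45- cells, and Smad7 changes order between the medium and the large sample.

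The classes were then compared, on UMIs summed per class and tumor sample, to ask which cells of each sort carried these messages. Over the 4 classes, Tgfb1, Nrros and Tgfbr1 were highest in the myeloid classes, Itgb8 in glioma or progenitor-like cells, and Tgfb3 in stroma, while Tgfb2 was high in both CD45- classes. Between microglia-like and glioma-like cells, 5 members were called higher and 2 lower, where 20.2% of 14263 genes were called higher and 21.9% lower. Between macrophage-like and glioma-like cells, 6 were called higher and 2 lower (all genes: 20.3% and 23.2%). Between stroma and glioma-like cells, 6 were called higher and 1 lower (13.6% and 12%). Stroma had 4 members higher and 4 lower than microglia-like cells (20.8% and 18.7%), and 4 higher and 3 lower than macrophage-like cells (19.9% and 16.2%). Microglia-like and macrophage-like cells had the fewest calls, with 2 members higher and 1 lower (5.17% and 5.08%).

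**Figure D2:**
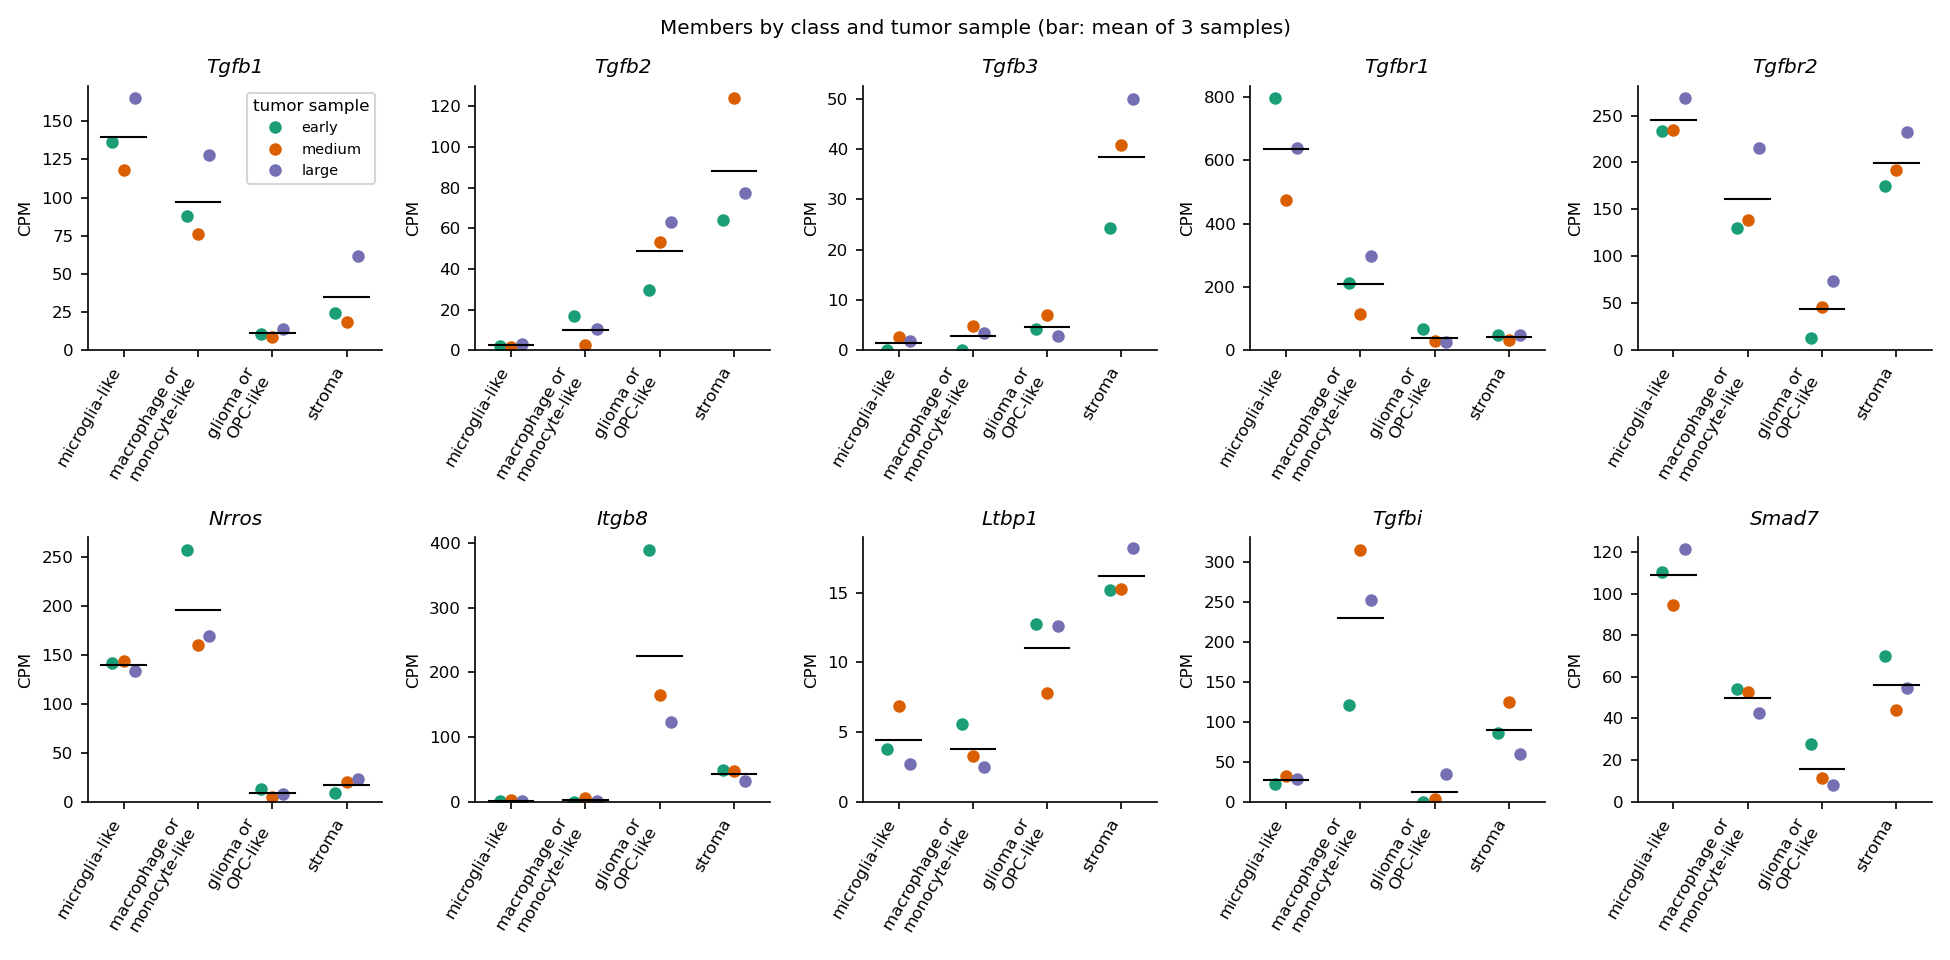
CPM of each member (y axis) in the 4 classes (x axis), with 1 point per tumor sample and a bar at the mean of the 3 samples. Tgfb1, Tgfbr1 and Nrros are high in the myeloid classes, Itgb8 in glioma or progenitor-like cells with its highest point in the early sample, and Tgfb3 in stroma.

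Among the ligands, Tgfb1 was highest of the 4 classes in microglia-like cells, with 136, 118 and 165 CPM in the early, medium and large samples. Macrophage-like cells followed with 87.7, 76.4 and 128. These neighbours overlapped and did not differ beyond their spread (log2 fold change 0.52, SE 0.24, adjusted p = 0.194). Stroma had 24.4, 18.7 and 61.4 CPM and glioma-like cells 10.6, 8.55 and 13.9. Stroma lay above glioma-like cells (log2 fold change 1.78, SE 0.32, adjusted p = 0.000572), a call that was lost within run 2 (log2 fold change 0.66, adjusted p = 0.544). Microglia-like cells exceeded glioma-like cells by a log2 fold change of 4.22 (SE 0.29, adjusted p = 1.2e-08). The microglial marker list moved in the same order, being 71.1 to 228 CPM in glioma-like cells with 10 of 10 markers detected, and its part in the low Tgfb1 values of glioma-like cells and stroma was not tested. P2ry12, a defining microglial gene, was at 22.6 ± 15.4 in glioma-like cells against 2717 ± 723 in microglia-like cells.

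Tgfb2 was ordered the other way. Stroma had 64.0, 124 and 77.3 CPM and glioma-like cells 29.8, 53.2 and 63.2, so that stroma was higher in 3 of 3 samples without overlap, but the difference did not pass (log2 fold change 1.05, SE 0.41, adjusted p = 0.0765). It passed in 4 of 19 alternatives, among them endothelial-like cells alone as stroma (1.93, adjusted p = 0.00303) and the first naming rule (1.70, adjusted p = 0.0149). Macrophage-like cells had 16.8, 2.44 and 10.4 and microglia-like cells 2.20, 1.58 and 3.13, which did not pass (log2 fold change -1.86, SE 0.60, adjusted p = 0.0619) but did so in 7 of 20 alternatives. Microglia-like cells were lower than glioma-like cells by a log2 fold change of -3.83 (SE 0.50), a call lost within run 1 (adjusted p = 0.0875), and stroma exceeded microglia-like cells by 4.87 (SE 0.51). The lower level of macrophage-like than glioma-like cells (log2 fold change -1.97, SE 0.49, adjusted p = 0.00428) was not called without the medium sample (adjusted p = 0.062) or without the large sample (adjusted p = 0.0552), nor within run 1 (adjusted p = 0.21). Within stroma Tgfb2 was 174 ± 77.3 in endothelial-like, 82.6 ± 5.19 in mural-like and 32.9 ± 4.92 in fibroblast-like cells. The mural-like cluster raised 7 of 10 mural markers and also 9 of 10 endothelial ones, and the part of the latter in its Tgfb2 and Tgfbr2 levels was not tested. The 9 astrocyte markers summed to 932 to 1643 CPM in stroma, 675 to 1441 in glioma-like and 227 to 329 in microglia-like cells. The 6 choroid plexus markers summed to 50.9 to 602, 39.7 to 245 and 4.48 to 64.6 in the same order. Astrocyte-like and choroid plexus-like cells were rich in Tgfb2, and the part of such RNA in the Tgfb2 levels of stroma and glioma-like cells was not tested.

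Tgfb3 was highest in stroma among the 4 classes. It stood at 24.4, 40.8 and 50.04 CPM there and at most 6.99 in any sample of the other 3, and stroma held 62 UMIs against 39 in glioma-like, 13 in macrophage-like and 9 in microglia-like cells. In early microglia-like cells no Tgfb3 UMI was counted among 8175281, which allows up to 0.367 CPM. Stroma was called higher than glioma-like cells (log2 fold change 3.60, SE 0.70, adjusted p = 0.00108), macrophage-like cells (3.46, SE 0.74) and microglia-like cells (4.92, SE 0.73, from 4.03 without the early to 5.75 without the medium sample). The signal came from fibroblast-like cells, at 54.6 ± 24.1, and from mural-like cells, where it ran from 0 to 162 on 16 UMIs. Endothelial-like cells had 1 UMI in all. Between classes, run 2 was the only run that tested Tgfb3, and the fit with endothelial-like cells alone as stroma did not test it.

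Tgfbr1, the type I receptor kinase, was highest among the compared classes in microglia-like cells, at 797, 476 and 639 CPM. Macrophage-like cells had 213, 113 and 299, so that the classes did not overlap (log2 fold change 1.60, SE 0.31, adjusted p = 0.00383). That call was lost without the medium sample (log2 fold change 1.39, adjusted p = 0.146) and within run 1 (1.40, adjusted p = 0.557). Glioma-like cells had 66.0, 27.6 and 24.5 and stroma 47.2, 30.6 and 47.8, which overlapped (log2 fold change 0.43, SE 0.36, adjusted p = 0.429). With each cell thinned to 1000 UMIs, 44.4% of microglia-like and 15.4% of macrophage-like cells had a Tgfbr1 UMI (61.7% and 30.9% unthinned). The 348 microglia-like cells that were recovered in the CD45- sort had 705 CPM (95% Poisson interval 648 to 767), a level within the range of the CD45+ microglia-like cells.

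Tgfbr2, the ligand-binding receptor, was spread more evenly. Microglia-like cells had 233, 235 and 269 CPM, stroma 175, 192 and 232, and macrophage-like cells 131, 138 and 215. None of these 3 classes was separated from another (log2 fold changes of 0.63 for microglia-like over macrophage-like cells, -0.62 for stroma over microglia-like and 0.00 for stroma over macrophage-like cells, with SEs of 0.32, 0.32 and 0.32 and adjusted p of 0.247, 0.139 and 0.998). Glioma-like cells were lower than all of them, at 12.8, 46.2 and 73.8, by log2 fold changes of 2.99 against microglia-like cells, 2.36 against macrophage-like cells and 2.36 against stroma. Inside stroma, endothelial-like cells had 326 ± 101, mural-like cells 167 ± 35.7 and fibroblast-like cells 131 ± 25.0.

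Nrros marked the myeloid classes together. It stood at 142, 144 and 134 CPM in microglia-like cells and 258, 160 and 169 in macrophage-like cells, a difference that did not pass (log2 fold change -0.49, SE 0.27, adjusted p = 0.29). Glioma-like cells had 12.8, 5.05 and 7.47 and stroma 9.14, 20.4 and 22.7. Macrophage-like cells exceeded glioma-like cells by a log2 fold change of 5.23 (SE 0.35) and microglia-like cells by 4.74 (SE 0.34). The higher level of stroma than of glioma-like cells (log2 fold change 1.40, SE 0.42, adjusted p = 0.0217) rested on 28 UMIs in stroma and was not called without the medium (adjusted p = 0.307) or the large sample (adjusted p = 0.159), nor within any run (adjusted p from 0.0816 to 0.85). Stroma also held 7 of 10 macrophage or monocyte markers, with a summed level of 419 to 790 CPM against 6049 to 7962 in macrophage-like cells and Arg1 at 0. The part of these markers in the stromal Nrros and Tgfb1 values was not tested.

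Itgb8 was highest in glioma or progenitor-like cells among the 4 classes compared. It stood at 389, 165 and 123 CPM there, at 48.8, 47.5 and 31.8 in stroma, at 1.47, 3.17 and 0.45 in microglia-like cells and at 0, 5.69 and 0.50 in macrophage-like cells. No sample of the other 3 classes compared reached the lowest glioma-like value. Samples of oligodendrocyte-like, astrocyte-like and choroid plexus-like cells did, as did the early sample of ependymal-like cells, at 127 CPM. The log2 fold change was -6.64 (SE 0.50) for microglia-like over glioma-like cells, -5.89 (SE 0.53) for macrophage-like over glioma-like cells and -2.09 (SE 0.39, adjusted p = 0.000837) for stroma over glioma-like cells. The first ran from -5.95 without the early to -7.26 without the medium sample. The second rested on 8 UMIs in macrophage-like cells and ran from -5.21 without the early to -8.14 without the medium sample. When each cell was classed by its own markers without clusters, the value for stroma was -0.15 (adjusted p = 0.88). Fibroblast-like cells held 68 of the 74 stromal UMIs, at 77.7 ± 15.6 CPM, and with endothelial-like cells alone as stroma the difference from microglia-like cells was not called (log2 fold change 1.36, adjusted p = 0.434). The 14 glioma or progenitor markers summed to 30.2 to 48.6 CPM in microglia-like cells against 6553 to 18643 in glioma-like cells, and the part of such stray RNA in the low leukocyte Itgb8 values was not tested.

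Ltbp1, the matrix tether, rested on few UMIs, with 15.2, 15.3 and 18.2 CPM in stroma, 12.8, 7.77 and 12.6 in glioma-like cells, 3.79, 6.86 and 2.69 in microglia-like cells and 5.60, 3.25 and 2.48 in macrophage-like cells. Stroma was called higher than microglia-like cells (log2 fold change 1.59, SE 0.52, adjusted p = 0.0233) and macrophage-like cells (1.91, SE 0.60, adjusted p = 0.0218), on 27 UMIs, of which 14 were in fibroblast-like, 9 in mural-like and 4 in endothelial-like cells. Neither call held without the early sample (adjusted p = 0.128 and 0.0579) or without the large sample (0.196 and 0.185), and the second was also lost without the medium sample (0.108). With endothelial-like cells alone as stroma neither was called (adjusted p = 0.823 and 0.69), and the first was not called within run 2 (0.0901), the only run that tested it. The first was also lost with the 5% highest doublet scores removed and at Leiden resolution 2. It was called in 11 of 17 alternatives and the second in 13 of 18. Stroma and glioma-like cells were not separated (adjusted p = 0.314).

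Tgfbi differed between the myeloid classes. Macrophage-like cells had 121, 314 and 253 CPM and microglia-like cells 22.0, 31.7 and 28.2, with no overlap (log2 fold change -3.02, SE 0.70, adjusted p = 0.0227). The call was lost without the early sample (log2 fold change -3.39, adjusted p = 0.178), within run 1 (adjusted p = 0.203) and run 2 (0.0774), and when the fit took only glioma-like cells with a transgene UMI (0.0814), with the same direction each time. Stroma had 85.3, 124 and 59.1, of which fibroblast-like cells held 146 of 155 UMIs, and was not separated from macrophage-like cells (log2 fold change -1.56, SE 0.69, adjusted p = 0.107) or microglia-like cells (1.46, SE 0.70, adjusted p = 0.129). Glioma-like cells ranged from 0 to 34.7. Macrophage-like cells exceeded them by a log2 fold change of 4.51 (SE 0.78, adjusted p = 0.000995), which was 3.73 without the medium and 7.09 without the large sample. Stroma exceeded them by 2.95 (SE 0.80, adjusted p = 0.0218), a value that was not called without the early (2.39, adjusted p = 0.24) or the medium sample (2.19, adjusted p = 0.0529), nor within run 1 (1.12, adjusted p = 0.207) or run 2 (3.40, adjusted p = 0.0501). Without the large sample, which held 237 of the 245 glioma-like Tgfbi UMIs, it was 5.82.

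Smad7, the inhibitor of the receptor, was highest of the 4 classes in microglia-like cells at 111, 94.5 and 121 CPM. Stroma had 70.1, 44.1 and 54.6 and macrophage-like cells 54.1, 52.8 and 42.7, which were not separated (log2 fold change -0.19, SE 0.31, adjusted p = 0.662). Within stroma, endothelial-like cells had 108 ± 28.6, close to microglia-like cells at 109 ± 13.5, with 44.99 ± 42.2 in mural-like and 24.3 ± 9.43 in fibroblast-like cells. Glioma-like cells were lowest at 27.7, 11.3 and 7.77. Microglia-like cells exceeded glioma-like cells by a log2 fold change of 3.65 (SE 0.32, adjusted p = 1.4e-07) and macrophage-like cells by 1.08 (SE 0.28, adjusted p = 0.02). The latter was not called without the early, the medium or the large sample in turn (adjusted p = 0.0502, 0.132 and 0.12), nor within run 1 (log2 fold change 0.35, adjusted p = 0.999) or run 2 (1.04, adjusted p = 0.106).

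Classes outside these 4 also carried several members. Tgfb2 stood at 234 ± 32.1 CPM in choroid plexus-like and 212 ± 168 in astrocyte-like cells. Smad7 was 161 ± 7.59 in oligodendrocyte-like cells, and Itgb8 was 125 ± 10.99 in those, 163 ± 44.6 in astrocyte-like and 169 ± 20.2 in choroid plexus-like cells, within the range of the glioma-like samples in each of these means. In ependymal-like cells Itgb8 was 127 in the early sample, the only one with at least 20 such cells. In border or perivascular macrophage-like cells, which line vessels and meninges, Tgfbi was 415 ± 61.4 and Nrros 293 ± 78.2. T cell-like cells had Tgfb1 at 96.3 ± 47.4, Tgfbr1 at 114 ± 39.8, Tgfbr2 at 139 ± 21.3, Nrros at 50.8 ± 6.82 and Smad7 at 93.4 ± 20.3. Neutrophil-like cells, in the same order of genes, had 69.0 ± 55.6, 219 ± 143, 65.6 ± 13.4, 138 ± 71.0 and 22.9 ± 21.6. The latter rested on 51, 253 and 27 early, medium and large cells. None of these levels was tested against the 4 classes. The 10 oligodendrocyte markers summed to 1251 to 3880 CPM in stroma and 3604 to 5729 in glioma-like cells. Their part in the Itgb8 and Smad7 levels of those classes was not tested. An unnamed CD45+ cluster of 1290 cells, led by Cxcl9 and 29.3% of the medium CD45+ cells, had Tgfbr1 at 448 in the early and 265 in the medium sample and Tgfbi at 48.3 and 162. Of the UMIs of Itgb8 in the medium CD45+ cells, this cluster held 56 of 172, and of Tgfb3 44 of 68. Counted over both sorts (1327 cells), the cluster also carried 175 CPM of the human EGFR transgene, against 2.51 and 2.14 in the macrophage-like clusters. The part of that in its Itgb8 and Tgfb3 was not tested.

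**Figure D3:**
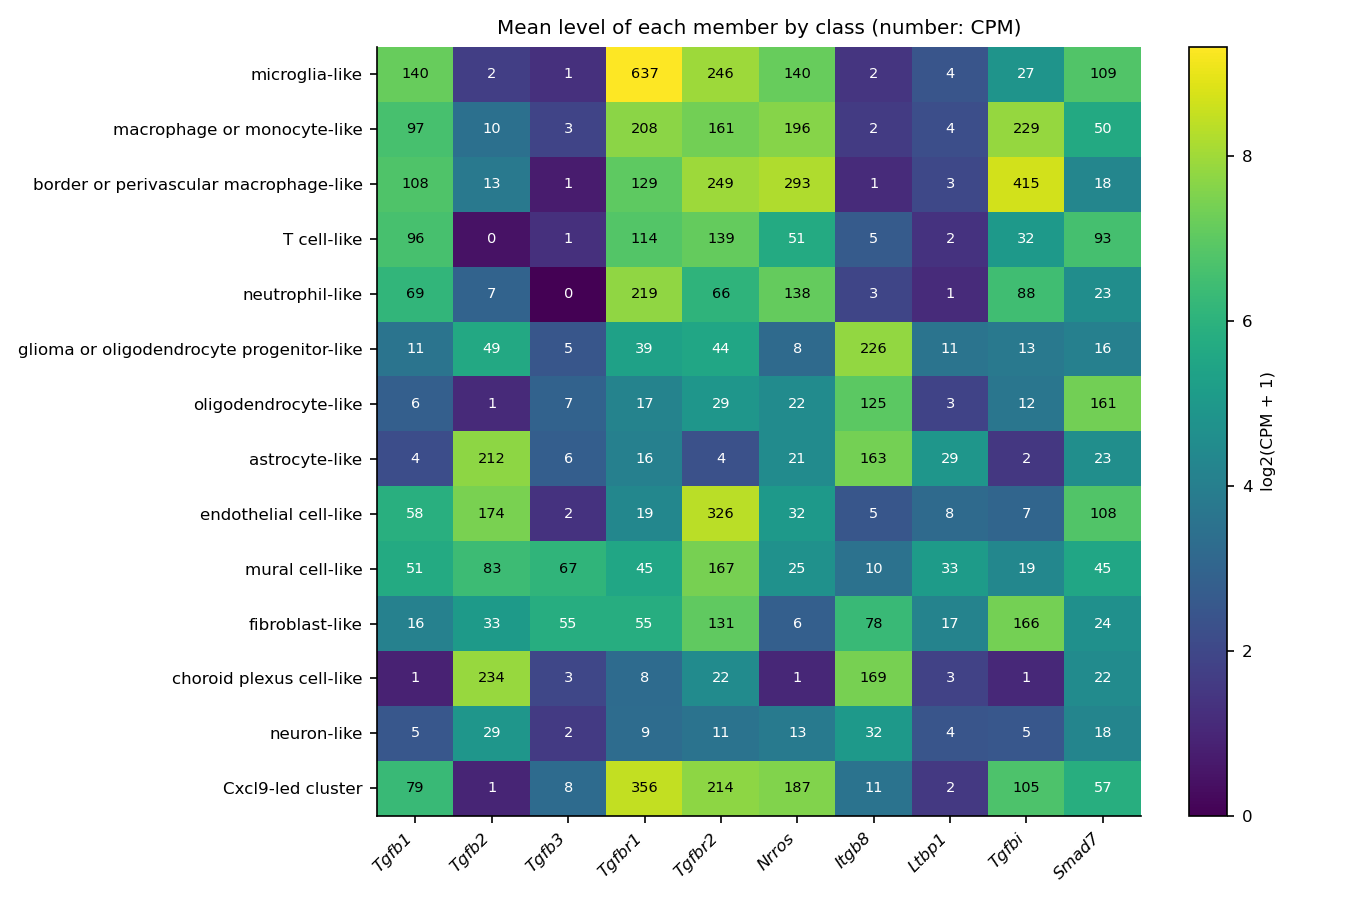
Mean CPM (numbers) and log2(CPM + 1) (color) of each member (columns) in each class (rows), as means over tumor samples with enough cells. Tgfbr1 reaches 637 in microglia-like cells, Tgfbi 415 in border or perivascular macrophage-like cells and Tgfb2 234 in choroid plexus-like cells, while Ltbp1 reaches 33.5 in mural-like cells.

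Stages were compared as values only, by whether the Poisson intervals and the ranges over technical libraries lay apart. Of 30 pairs of stages over the members, both lay apart in 4 for microglia-like cells, 9 for macrophage-like cells, 7 for glioma-like cells and 1 for stroma. Over all 14263 genes tested, the same held for 9.82%, 7.53%, 19.1% and 1.42% of pairs. In microglia-like cells these were Tgfbr1 in the medium sample against early and large, Tgfb1 in medium against large, and the sparse Tgfb3. A cluster led by Cnbd2, Cep85 and Cxcl13 made up 3.71%, 21.7% and 4.58% of the early, medium and large microglia-like cells. One led by P2ry12 and Tmem119 made up 19.6%, 5.09% and 41.3%. In this class P2ry12 was at 3470, 2028 and 2653 CPM and Tmem119 at 1247, 926 and 1349, lowest in the medium sample as Tgfbr1 was. The part of these clusters and markers in the differences was not tested. Nrros in microglia-like cells stayed between 134 and 144 CPM. In macrophage-like cells Tgfbr1 was 2.64 times and Tgfbr2 1.56 times as high in the large as in the medium sample. The microglial marker Tmem119 in macrophage-like cells ran in the same order as Tgfbr1, at 119, 78.8 and 204 CPM in the early, medium and large samples, while P2ry12 was at 196, 137 and 182, and their part in these differences was not tested. The cells were also of different clusters, and across all stages Tgfbr1 was 303 CPM in the Spp1-led and 94.3 in the Ccr2-led cluster, and Tgfbi 194 and 357. A stage cannot be told apart from the single tumor sample that stands for it.

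In glioma or progenitor-like cells Itgb8 was 0.316 times and Tgfb2 2.12 times as high in the large as in the early sample, and Tgfbr2 was 5.78 times as high. Tgfbi went from no UMI among 469929 in the early sample, which allows up to 6.38 CPM, to 34.7 in the large sample. The clusters of this class differed in the same genes. Transgene levels of clusters are counted over both sorts, and levels of members over CD45- cells. In the Pdgfra-led cluster, which held most early cells, Itgb8 was 338 CPM (95% Poisson interval 299 to 381), Tgfbr2 6.26 (2.03 to 14.6) and no Tgfbi UMI was counted. In the Gpr17-led cluster, with the transgene at 2712 CPM, Itgb8 was 96.7 and Tgfbr2 8.81. In the Thbs2-led cluster, with the transgene at 1356 and 530 of its 546 CD45- cells from the large sample, Tgfb2 was 97.3 (88.0 to 107), Tgfbr2 123 (112 to 134) and Tgfbi 57.7 (50.5 to 65.5). In the last cluster, led by AI506816, all CD45- cells came from the medium sample, and 66 of its 189 cells were CD45+. Its transgene stood at 1241, Itgb8 at 236 (203 to 271) and Tgfbr2 at 108 (86.6 to 133). Among cells with a transgene UMI, Itgb8 was 160 in the medium and 116 in the large sample, and Tgfbr2 49.8 and 76.1. For these 2 genes the order of the medium and large samples was the same with these cells alone, while the early sample had too few of them to compare.

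**Figure D4:**
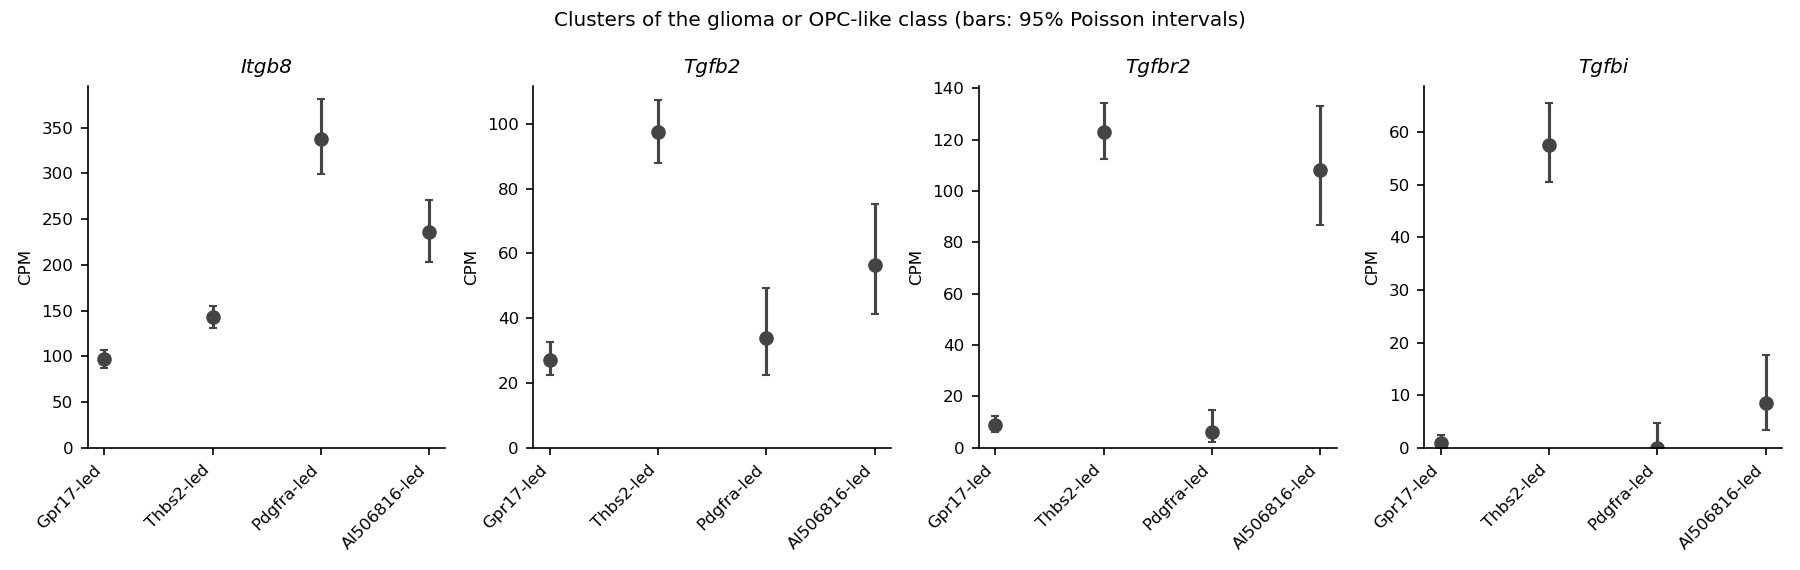
CPM (y axis) of 4 members in the 4 clusters of the glioma or progenitor-like class (x axis, named by their leading gene), with 95% Poisson intervals that cover counting error only. Itgb8 is highest in the Pdgfra-led cluster at 338, and Tgfb2 and Tgfbi are highest in the Thbs2-led cluster, at 97.3 and 57.7.

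The rest of the pathway was described through 36 genes in 6 groups, of which 33 were tested between classes. In microglia-like over glioma-like cells 15 were called higher and 7 lower, with a median log2 fold change of 1.17 against -0.03 over all genes, of which 20.2% were called higher and 21.9% lower. In macrophage-like over glioma-like cells 17 were higher and 5 lower (median 1.05 against -0.11, with 20.3% and 23.2% of all genes called), and in stroma over glioma-like cells 20 were higher and 1 lower (1.23 against -0.04, with 13.6% and 12% of all genes called). Stroma over microglia-like cells gave 12 higher and 9 lower (-0.02 against -0.03, with 20.8% and 18.7% called), and stroma over macrophage-like cells 12 and 6 (0.42 against 0.06, with 19.9% and 16.2%). Microglia-like over macrophage-like cells gave 4 higher and 2 lower (0.47 against 0.13, with 5.17% and 5.08%). In the sorts, 16 of 35 were higher and 7 lower in CD45+ cells (0.86 against -0.04, with 20.4% and 25.7%). Called higher in CD45+ cells were Tgif1 (log2 fold change 4.05, SE 0.29) and Skil (2.64, SE 0.21), both repressors of SMAD transcription, with Itgb5 (3.88, SE 0.47) and the protease Mmp9 (6.21, SE 0.93). Of the 1281 Mmp9 UMIs in CD45+ cells, microglia-like cells held 1 and macrophage-like cells 10. Called lower were the matrix tethers Ltbp3 (-1.08, SE 0.24) and Ltbp4 (-3.51, SE 0.35), the co-receptor Tgfbr3 (-3.70, SE 0.27) and the target Ccn2 (-3.57, SE 0.40).

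Among integrins and proteases of activation, 2 of 8 were higher and 1 lower in microglia-like than glioma-like cells, which is near the 20.2% and 21.9% of all genes. Itgb5, a partner of alpha v, was higher in microglia-like cells by a log2 fold change of 7.19 (SE 0.40, adjusted p = 2.4e-09) and also higher than in macrophage-like cells (1.17, SE 0.30), and Itgav, alpha v itself and the partner of the beta 8 chain, was lower than in glioma-like cells (-1.48, SE 0.39). Thbs1, a matrix protein that can release the ligand, was higher in macrophage-like cells (4.87, SE 0.91) and stroma (5.29, SE 0.93) than in glioma-like cells. Of the latent complex and anchoring genes, all 3 tested were higher in stroma than in microglia-like and macrophage-like cells (20.8% and 19.9% of all genes). Ltbp4, another matrix tether, had 3 UMIs in microglia-like and none in macrophage-like cells, the latter allowing up to 0.793 CPM. Lrrc32, the tether GARP of regulatory T cells and endothelium, was higher in stroma than in glioma-like cells (5.96, SE 0.81), where it had 2 UMIs.

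Among co-receptors, Eng, the endothelial co-receptor endoglin, and Acvrl1, an endothelial type I receptor, were higher in stroma than in glioma-like cells (6.30, SE 0.38, and 5.91, SE 0.40), as were all 4 of the group (13.6% of all genes). Eng was also higher in microglia-like than macrophage-like cells (1.70, SE 0.32, adjusted p = 0.00294). Tgfbr3, betaglycan, had no UMI in microglia-like cells, which allows up to 0.244 CPM, and was lower there than in glioma-like cells. Among SMADs, Smad3, a receptor-activated SMAD, was higher in microglia-like than in macrophage-like cells (1.73, SE 0.46, adjusted p = 0.0251) and glioma-like cells (1.20, SE 0.42, adjusted p = 0.0314). It ran from 51.1 to 60.9 CPM in microglia-like and from 12.2 to 20.5 in macrophage-like cells. In glioma-like cells it ran from 25.2 to 63.8, which overlapped microglia-like cells. Smad6, an inhibitory SMAD of BMP signalling, was higher in stroma than in glioma-like cells (6.13, SE 0.56). Of 7 negative regulators, 5 were higher and none lower in both microglia-like and macrophage-like over glioma-like cells (20.2% and 20.3% of all genes higher), led by the co-repressor Tgif1 (4.88, SE 0.46, and 4.27, SE 0.46) and the SMAD-binding Ldlrad4 (4.24, SE 0.52, and 3.09, SE 0.56).

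Target genes did not move one way. In stroma all 7 were higher than in glioma-like cells (13.6% of all genes), with Id1 and Id3, which also respond to BMP, at log2 fold changes of 4.53 (SE 0.43) and 4.22 (SE 0.63). In microglia-like over glioma-like cells 4 were higher and 3 lower (20.2% and 21.9% of all genes), and Ccn2, a matrix protein, was without a UMI in microglia-like cells. In microglia-like over macrophage-like cells 1 of 7 was called, Id3, which was lower (-2.86, SE 0.70), where 5.08% of all genes were lower.

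Genes with the pattern most like each member were ranked by Pearson's r of log2(CPM + 1) over 40 sums of a class and stage. They were taken from 17134 genes with at least 20 CPM in 1 sum or more, from which members were then left out. The ranking is a description only, since sums of 1 stage share libraries. For Tgfbr1 they included Csf1r (r = 0.86) and Olfml3 (0.85), and for Nrros Cyth4 (0.87), Ifrd1 (0.84) and Nckap1l (0.84). For Tgfb1 they were Nfkbia (0.89), Gadd45b (0.87) and Ptbp3 (0.86), and for Tgfbr2 Ctsh (0.88), Sipa1 (0.83) and Trim47 (0.83). For Tgfb2 they included Myo10 (0.86) and Gsta4 (0.85), and Itgb8 was most like Me1 (0.88), Aldh5a1 (0.87) and Ddr1 (0.85). Tgfb3 followed Mrgprf (0.74), Foxc2 (0.73) and Col1a2 (0.72), and Ltbp1 followed Ntn1 (0.75), Dag1 (0.74) and Ppp1r3c (0.74). Tgfbi was most like Ftl1 (0.83), Ftl1-ps1 (0.82), a near copy whose reads may be shared with Ftl1, and Spp1 (0.80). Smad7 had no gene above 0.69, the value for Rela, Kdm1b and Smim15.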

How the data were processed

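Droplet libraries of CD45+ and CD45- cells were sequenced in 3 runs, which are the 3 deposited samples. The authors aligned reads with RapMap in bcbio-nextgen to the mouse GRCm38 transcriptome with added transgenes and separated cells from empty droplets. Raw, unscaled UMI counts for each gene in each cell were deposited. The annotation of the libraries deposited by the authors is text (unit: other) and gives run, sort and stage. Its methods further name removal of ambient RNA and of doublets, without saying whether this preceded the table.

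Of 20811 cells, 17894 had at least 500 UMIs, at least 500 genes and at most 20% mitochondrial UMIs. Scrublet called 113 doublets of 17786 cells scored (0.635%, with 2 libraries too small to score), which were removed. Because few were called, an alternative removed the 5% highest scores. Variable genes (2000) were chosen with scanpy 1.11.5, leaving out the members, pathway genes, mitochondrial genes and sex-linked genes such as Xist. Cells were clustered on 40 principal components through a graph of shared neighbours (20 neighbours) with leidenalg 0.10.2 (Leiden resolution 1). A cluster took a class with at least 3 markers that were raised 2-fold over all remaining cells and detected in 10% or more of its own cells. If several classes qualified, the one with most markers among the 10 leading genes was taken, then that with the largest share of its markers. A cluster that qualified as glioma or progenitor-like and raised the human EGFR transgene took that class first. Clusters led by Elane and Mpo or by Igkc and Jchain stayed unnamed. The transgene rule placed the Thbs2-led cluster, which raised 3 of 14 glioma or progenitor and 3 of 9 astrocyte markers.

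UMIs were summed per tumor sample and per sort or class and tested with edgeR 4.0.16 (R 4.3.3) by the quasi-likelihood test with TMM factors, filterByExpr, a robust fit and tumor sample as a block. Tests were two-sided, p-values were adjusted by Benjamini-Hochberg over all genes tested, and the threshold was 0.05. The class fits covered the 4 classes together, with sums of at least 20 cells. Within run 1 this left no large microglia-like and no early macrophage-like sum, so only the medium sample paired these classes there. Same-numbered sums come from the same tumor sample, and their deviations correlated at 0.379, 0.274 and 0.294 between sorts and at 0.00932 to 0.244 between classes. The SE is the log2 fold change over the square root of F. Errors of levels are SDs over 3 tumor samples, and Poisson intervals are 95% and cover counting error only. The test was checked on simulated counts. Replicates 1, 2 and 3 are the early, medium and large tumor samples.

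The members and lists were chosen with earlier results of these data known. All members were named, the pathway genes given are among the 2 largest called changes per group and comparison (or listed at or near 0) and the genes given as most like each member are among its top 3. Some genes and alleles that these rules would name are not reported here. The naming rule (order of classes, transgene rule and clusters kept unnamed) was revised after the first clusters were seen. This changed the class of 4 clusters, among them the Thbs2-led one. The filter was set by group and Ccn2 was matched to its older symbol, which kept it out of clustering, after first results were seen. Alternatives were another normalization, DESeq2 1.42.0, no filter, no block, each tumor sample left out, each run alone, other cell filters and doublet settings, class per cell, cells with a transgene UMI, endothelial-like stroma alone and, chosen after seeing the data, Leiden resolution 2, the first naming rule, the Cxcl9-led cluster counted as macrophage, and 2225 cells with a shared barcode left out.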

Additional observations from a re-analysis of the deposited data

Results flagged for a closer look

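The difference in Smad7 CPM between the sorts pointed opposite ways in 2 tumor samples. The log2 ratio of CD45+ over CD45- cells, without the TMM factors of the fits, was -0.40 in the medium sample and 0.83 in the large sample. This contrast between stages was not tested, since each stage has 1 tumor sample. Between the sorts, the median log2 fold change over all genes was -0.40 without TMM factors and -0.04 with them. Whether Smad7 in the medium sample keeps its sign with them was not tested. In the medium sample Smad7 stood at 53.1 CPM in CD45+ and 70.3 in CD45- cells, and in the large sample at 75.1 and 42.3. Microglia-like cells, the class with the highest Smad7 of the 4 compared, made up 23.2% of the medium and 49.6% of the large CD45+ cells, and oligodendrocyte-like cells, with 161 ± 7.59 CPM of Smad7, made up 41.2% of the medium and 30.6% of the large CD45- cells. Glioma-like cells, with 15.6 ± 10.6 CPM, made up 27.3% and 50.1%. The part of these shares in the difference was not tested.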

How the results depend on the processing

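Of the 47 calls of a member in a comparison, 46 kept their direction under every alternative that gave a value, 39 were called whichever tumor sample was left out, and 31 were called under every alternative that gave a value. Among these 31 were the stroma calls of Tgfb3, which had values in 16 or 17 alternatives and in 1 run only. The exception in direction was Tgfbi in stroma over glioma-like cells, at a log2 fold change of -0.69 with endothelial-like cells alone as stroma. The number of members called in microglia-like over macrophage-like cells fell from 3 to 1 in run 2 and to 0 in run 1 (19 genes called higher over all genes in run 1), and ran from 1 to 2 with a tumor sample left out. In run 1 it was 4 in stroma over glioma-like, 5 in stroma over microglia-like and 4 in stroma over macrophage-like cells, where 664, 943 and 843 of 7142 genes were called higher and 592, 800 and 659 lower. In run 2 it was 4 in stroma over glioma-like cells (1183 of 12044 genes higher and 1021 lower). With endothelial-like cells alone it was 4 in stroma over microglia-like cells (1818 of 13984 genes higher and 2294 lower). Run 1 tested 8 members and the endothelial-like fit 9. With the naming rule as first run, which calls the Thbs2-led cluster astrocyte-like, Tgfb2 was no longer called in macrophage-like over glioma-like cells (log2 fold change -1.15, adjusted p = 0.116) and Tgfbi was called in microglia-like over glioma-like cells (4.49). Without TMM factors the median log2 fold change over all genes moved from -0.04 to -0.40 between the sorts, from -0.03 to -0.55 in microglia-like and from -0.11 to -0.67 in macrophage-like over glioma-like cells, and genes called higher in microglia-like over glioma-like cells fell from 2883 to 1827 while those lower rose from 3117 to 5155. Without the replicate block the members called numbered 7 between the sorts and 4 between the myeloid classes, where Tgfb2 was added (adjusted p = 0.0438), as it was in 6 other alternatives, DESeq2 among them (adjusted p = 0.025), and the number in other comparisons did not change. Within run 3 the log2 ratio of the large over the early sample in glioma-like cells was 0.73 for Tgfbr1 and 0.26 for Smad7, against -1.43 and -1.83 over all runs. The cause of these changes was not tested. Depth limits Tgfb3 and Ltbp1, with 253 and 288 UMIs in all kept cells.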
